A study of Mus musculus with 9 samples.

Results

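The regions described here are CTCF peaks of resting mouse CD8+ T cells that were listed in every naive library and in no library after 72 h of cytokine culture, whether or not the cells carried Tcf1 and Lef1. Peaks of the 8 CTCF lists on chromosomes 1 to 19 that overlapped by 1 bp or more were merged into 38586 regions, and 2894 of these had a peak in all 4 naive lists and in none of the 4 lists at 72 h. They are called the members below. They made up 7.50% of all merged regions and 12.1% of the 23839 regions found in all 4 naive lists (exact Clopper-Pearson 95% interval 11.7% to 12.6%, which covers counting error only). Members were chosen by the presence and absence of listed peaks at both times, so their absence at 72 h is how they were picked and not a result.

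CTCF is a DNA-binding protein with an array of zinc fingers that reads a long, conserved motif. It blocks the movement of cohesin along chromatin, and pairs of bound sites thereby become anchors of chromatin loops and borders of topological domains. Many of its sites are occupied in most cell types, and others vary between cell types and states. Tcf1 (gene Tcf7) and Lef1 are related HMG-box factors that set and keep the identity of T cells, and the study's title links Tcf1 with CTCF in these cells.

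All mice carried hCD2-Cre, a Cre transgene driven by human CD2 sequences and active in the lymphoid lineage, and Rosa26-lsl-GFP, a reporter that turns on where Cre has acted. Controls, called WT, had wild-type Tcf1 and Lef1, and the deficient mice, called DKO (Tcf1-/-Lef1-/-), had both genes floxed. Cells from the spleen were sorted as GFP+ TCRbeta+ CD62Lhi CD44lo-med CD8+ and were used at 0 h (naive) or after 72 h of culture. The medium then held IL-7 plus IL-15, a pair of cytokines on which resting and memory CD8+ T cells depend. CUT&RUN, in which an antibody brings a nuclease to the bound protein and short fragments are released, gave 2 CTCF libraries in each of the 4 groups and 1 IgG library of WT naive cells. The labels used here do not give the age of the mice or say that replicates came from separate animals. No group was cultured without cytokine, so cytokine and time in culture cannot be told apart. Peak lists hold no expression values, so neither the sorted phenotype nor the deletion was checked. In bulk cells, a site bound in fewer cells and a site bound less in each cell cannot be told apart. Positions are in mm9, and no gene or sequence is given because neither an annotation nor a genome of that build was used here.

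The lists differed in length, which bears on every count below. Naive lists held 30309 to 32587 peaks, WT lists at 72 h held 17335 and 26630, and DKO lists at 72 h held 10339 and 16234. No list held a CTCF peak below a fold of 4, fold being the authors' enrichment of a peak over the background that the peak caller estimated. An absent peak therefore shows only that none was listed. The files hold no read totals, so depth is unknown. None of the members (0 of 2894) overlapped any of the 5 peaks of the IgG list.

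Members were mostly weak sites in naive cells. The authors' −log10 p ranks peaks by evidence, and a rank percentile gives a peak's place in its own list, with 100 the strongest. The median member had a mean naive percentile of 28.8 (quartiles 19.5 and 41.9), against 60.0 over all 23839 regions found in the 4 naive lists and 82.3 over the 9363 regions with a peak in all 8 lists. The median fold of members was 6.72 and 6.11 in the WT naive libraries (replicates 1 and 2) and 6.65 and 6.92 in the DKO naive libraries. The 4 medians lay within 1 unit of fold of each other, and the regions found in all 8 lists had medians above 20 in each of the same libraries (20.9 to 23.8). Of the members, 1239 (42.8%) had a fold under 5 in at least 1 naive list, close to the floor of the lists. A fold of 10 or more in all 4 naive lists was held by 69 members (2.38%), against 12099 (57.8%) of the other 20945 regions. These values come from the lists the rule used and are given as a description.

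Along the order of naive strength, the share of regions without any peak at 72 h fell steeply. In the weakest decile by mean −log10 p, 1072 of 2384 regions (45.0%) were members. The share was 28.3% in the next decile and 8.18% in the fifth, and 2 of 2384 regions (0.0839%) were members in the strongest. Ordered by fold in place of −log10 p, the weakest decile held 53.3% members and each of the strongest 2 deciles, with 2384 regions, held 0. At the upper end, members were thus rarer by fold than by −log10 p.

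**Figure D1:**
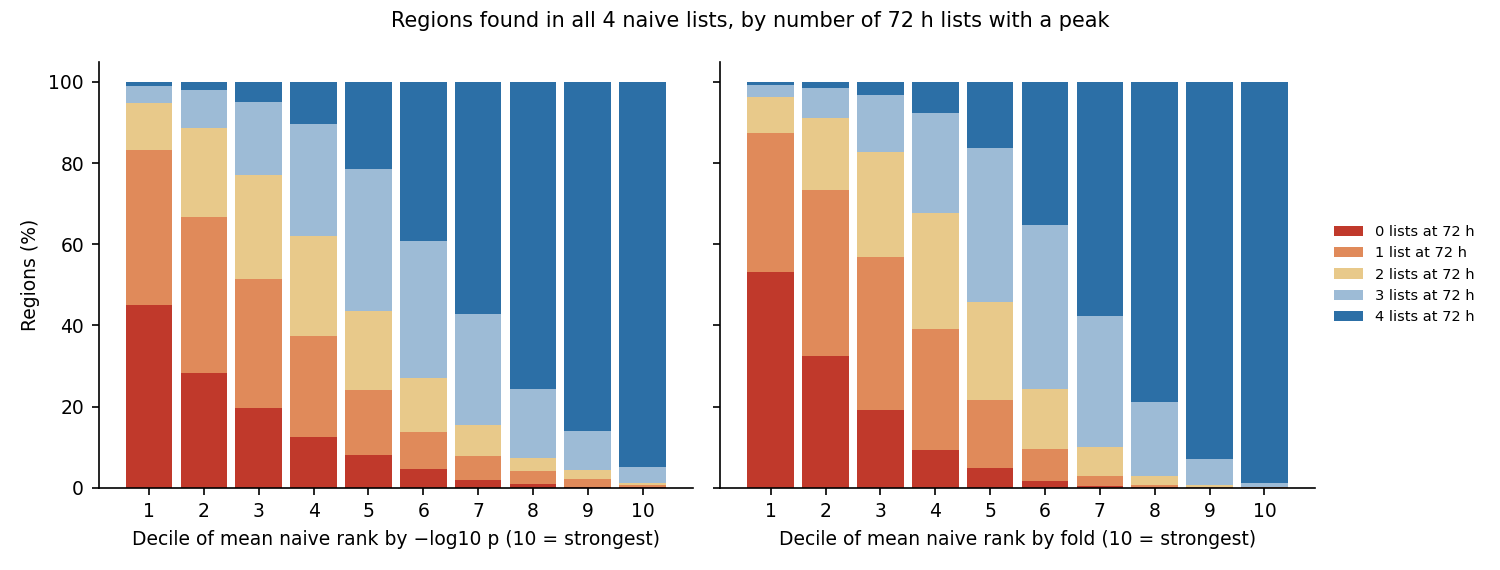
Stacked bars give the percent of the 23839 regions found in all 4 naive lists that had a peak in 0, 1, 2, 3 or 4 lists at 72 h, by decile of the mean naive rank (left by −log10 p, right by fold, 10 the strongest). Members are the 0-list share, 45.0% in the weakest p decile and 53.3% in the weakest fold decile.

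Members picked for a high p rank had low fold ranks for it. Above the midpoint of the p order (mean naive percentile of 50 or more) lay 427 members, and 309 of them (72.4%) had a mean fold percentile under 50. The same held for 926 of the 14298 other regions above that midpoint (6.48%). Among those with a peak in 1 to 3 lists at 72 h it held for 878 of 5301 (16.6%), with a median difference of -0.189. The median fold percentile of these 427 members was 22.7 points below their p percentile (median of the difference -22.7, quartiles -37.7 and -6.03), whereas for the other regions the median difference was 2.01. Within each naive library, for its members above the midpoint, median differences were -17.8 and -18.7 in WT and -17.0 and -13.1 in DKO. The rule picked members from these same lists, so the values by library are a description and not separate support. By how such values are defined, a p-value depends on the number of reads as well as on the ratio to background, whereas fold is the ratio alone.

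In the 2 weakest p deciles the fold percentile of members lay above the p percentile (median differences of 3.79 and 3.62). From the third decile it lay below (-1.97), and the gap widened to -62.8 in the ninth, which held 5 members. The order of picking matters to this gap. In the fourth to seventh deciles by fold, members had median differences of 4.27, 4.92, 4.42 and 7.85. Regions found in all 8 lists had 4.35, 3.99, 3.96 and 3.67, so no gap of this kind was present in these deciles. In the weakest fold decile, with 1270 members, the median difference was 0.155 in members and 3.22 in regions found in all 8 lists. It was 3.19 and 3.89 in the second, and 3.74 and 2.63 in the third. Members had a median mean fold of 5.93 in the weakest p decile, 8.31 in the fourth, 8.01 in the sixth and 7.35 in the eighth, where 23 members lay. Regions found in all 8 lists rose over the same deciles from 6.46 to 11.2, 15.8 and 22.6. The medians of members stayed between 5.93 and 8.50 over the 8 weakest deciles, while those of regions found in all 8 lists climbed. The lists' floor in fold applies at 72 h too, and its part in this pattern was not tested. The pattern was also present with all 8 lists cut to the length of the shortest: 39 of the 44 regions of the member type above the midpoint (88.6%) had a fold percentile under 50, against 18.7% of the 4793 others. With only the 72 h lists cut, 11046 regions met the rule. Those above the midpoint had a median difference of -3.56, so the gap was much smaller.

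**Figure D2:**
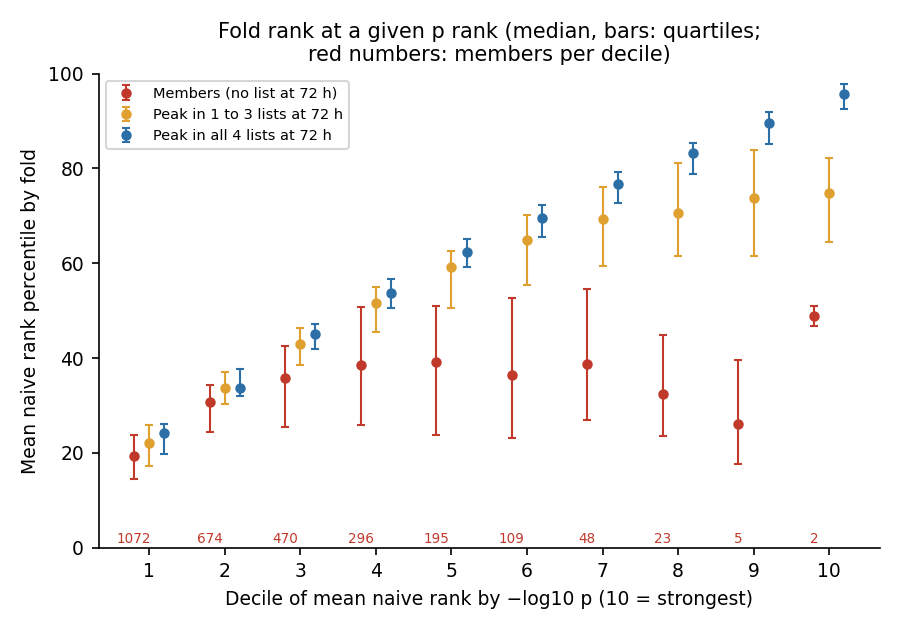
Points give the median mean naive rank percentile by fold (bars, quartiles over regions) in each decile of the rank by −log10 p, for members, regions with a peak in 1 to 3 lists at 72 h and regions with a peak in all 8 lists. Member medians stay below 50 in every decile, while those of regions found in all 8 lists climb to 95.8.

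The member of highest naive rank was chr10:18781672-18783057, a region of 1386 bp. Naive WT libraries gave it a fold of 11.99 and 9.62, naive DKO libraries both gave 10.9, and its mean p percentile was 96.5 with a fold percentile of 53.0. The WT and DKO values overlapped. The next, chr8:13785174-13786680 (p percentile 94.9), had a fold of 5.57 and 9.46 in WT and of 12.5 and 11.8 in DKO. Both DKO libraries stood above both WT libraries there.

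The third, chr9:56923046-56924939, was even across libraries, at 6.29 and 6.75 (WT) and 6.43 and 6.76 (DKO) with a p percentile of 88.9. The lowest fold percentile of the 10 highest members, 10.9, was that of chr10:80783143-80783945, which had 5.15 and 4.65 in WT, 5.55 and 4.81 in DKO at a p percentile of 88.2. It was followed by chr11:96838415-96839434, with 5.57 and 5.44 in WT, 6.54 and 5.32 in DKO, and percentiles of 86.9 and 17.8. In every naive library the folds of these 3 regions were near the member median or below it.

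The remaining 5 of the 10 highest had p percentiles from 82.9 to 84.0. They were chr3:107136015-107136871 (fold 9.90 and 8.90 in WT, 9.02 and 7.28 in DKO), chr1:167390588-167391522 (9.51 and 6.11, then 10.9 and 7.81) and chr3:87945061-87946770 (9.63 and 9.65, then 10.8 and 13.5). The last 2 were chr4:41221862-41222669 (5.72 and 6.62 in WT, 7.20 and 8.32 in DKO replicates 2 and 1) and chr5:134745246-134746168 (7.10 and 6.30 in WT, 5.78 and 5.48 in DKO). WT and DKO values overlapped in the regions at chr3:107136015 and chr1:167390588. Both DKO values were higher in those on chr3:87945061 and chromosome 4, and lower in the one on chromosome 5.

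A different set led when members were ordered by fold, an ordering chosen after the values were seen. The first was chr4:154552138-154553286, with 24.98 and 23.96 in WT and 20.6 and 16.8 in DKO, followed by chr9:115532906-115534423 (21.9 and 19.9, then 19.6 and 18.4) and chr13:42043696-42044219 (14.2 and 15.3, then 21.7 and 20.5). Neither of the first 2 had a p percentile above 80 (78.8 and 72.2). None of the 5 highest by fold was among the 10 highest by p.

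At the lower edge, the weakest members were chr11:108073868-108074357 (fold 4.36 and 4.89 in WT, 4.07 and 4.40 in DKO), chr4:124742895-124744260 (4.36 and 4.23, then 4.502 and 4.40) and chr9:96619358-96620734 (4.99 and 4.56, then 4.89 and 4.36). All of these values lay within 1 unit of the floor.

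Just outside the rule were 4058 regions with a peak in all 4 naive lists and in exactly 1 list at 72 h. That list was WT 72 h replicate 2, the longest at 72 h, in 3879 of them (95.6%), with a median fold there of 5.90 (quartiles 5.06 and 7.27). Their other lists were WT 72 h replicate 1 in 102 (2.51%), DKO replicate 2 in 74 and DKO replicate 1 in 3. A single library thus drew most of the border of the set, and without it the rule gave 6775 regions in place of 2894. The 3 highest-ranked such regions were chr7:134351778-134353204 (naive folds 9.25, 8.09, 8.61 and 10.2 in the order WT, WT, DKO, DKO, and 7.73 in WT 72 h replicate 2), chr5:121062277-121063707 (8.87, 7.02, 14.8 and 8.26, then 5.17) and chr8:20019976-20020814 (10.7, 9.68, 12.3 and 11.4, then 6.99). Their p percentiles were 96.9 to 97.6 and their fold percentiles 43.4 to 53.5. These 3 were picked for their p rank, so the lower fold rank is a description.

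On the other border, 1998 regions had a peak in 3 naive lists and none at 72 h. The missing list was WT naive replicate 2 in 747 of them, DKO replicate 1 in 518, DKO replicate 2 in 387 and WT replicate 1 in 346. The highest ranked were chr9:32733375-32734778 (fold 10.8 and 7.85 in WT and 5.86 in DKO replicate 1), chr10:80084566-80085419 (6.30 in WT replicate 1, 7.32 and 6.52 in DKO) and chr13:108680201-108681725 (6.18 in WT replicate 1, 5.91 and 7.53 in DKO).

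With all 8 lists cut to the 10339 strongest peaks, 271 regions had a peak in all 4 naive lists and none at 72 h, of 7969 in all 4 naive lists (3.40%). Of these, 35 overlapped a member. The other 236 did not. At matched list length the rule thus picks mostly other regions, and which sites are members depends on the lengths of the lists as deposited.

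Most member peaks were narrow, and their naive summits were close together for their rank. The median naive peak width was 535 bp in members (mean over the 4 lists), against 756 bp over all regions found in the 4 naive lists, and merged member regions had a median width of 714.5 bp (270 to 3610 bp). Within a p decile the widths differed less, with medians of 600.5 bp in members and 695.75 bp in regions found in all 8 lists in the fourth decile. In the eighth the order was the other way, with 939.75 bp in its 23 members and 891.5 bp in regions found in all 8 lists, and likewise in the tenth, with 1315 bp in its 2 members and 1066.75 bp. The summit spread, the distance between the outermost of the 4 naive summits of a region, had a median of 102 bp in members and 86 bp over all regions. At a matched p decile the order turned in the 8 weakest deciles: in the fourth it was 70 bp in members, 96 bp in regions with 1 to 3 lists at 72 h and 120 bp in regions found in all 8 lists. In the third it was 85, 112 and 148 bp, and in the weakest decile 143, 152.5 and 157.5 bp. From 21 to 28 members per naive library held more than 1 peak (0.726% to 0.968%).

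The widest members were chr7:29593175-29596784 (3610 bp, fold 7.86 and 5.10 in WT, 8.93 and 10.04 in DKO), chr12:8640133-8643649 (3517 bp, 6.88 and 4.26, then 4.44 and 7.85) and chr7:109397182-109399859 (2678 bp, 6.10 and 5.22, then 6.59 and 5.77). WT and DKO values overlapped in the region on chromosome 12 and in the last of these, and in the first both DKO values were higher.

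The libraries ordered members less alike than they ordered all regions. Over the 2894 members, Spearman's rho of fold was 0.555 between the WT naive replicates and 0.537 between the DKO naive replicates, and 0.393 to 0.415 between genotypes. Over all 23839 regions the same values were 0.921, 0.909 and 0.871 to 0.881. For −log10 p, members had 0.728 and 0.712 within genotypes and 0.599 to 0.624 between them. These coefficients describe regions within the same 4 libraries, and members span a narrow range of values.

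The rule asks the same of both genotypes in naive cells, and a further question is whether members stood at the same place in WT and in DKO. So that the lists could be set side by side, each region was ranked in each naive list among the same 23839 regions. The median rank of members was the percentile 15.1 and 15.1 in WT naive cells and 18.99 and 17.6 in DKO naive cells. Both DKO medians stood above both WT medians. Both DKO ranks lay above both WT ranks in 872 members (30.1%), against 22.3% over all 23839 regions, and below both in 453 (15.7%), against 21.5%. The ranks of the 2 genotypes did not overlap in 1325 members (45.8%), near the 43.8% over all regions. The 2 directions were less even in members than over all regions. The rule asks for absence from the 72 h lists, of which the WT lists were longer than the DKO lists. Its part in this split was not tested. Without WT 72 h replicate 2 the count without overlap was 3045 (1772 higher and 1273 lower in DKO). Without 1 naive library it was 2354 (WT replicate 1), 2534 (WT replicate 2), 2513 (DKO replicate 1) or 2431 (DKO replicate 2), where 1 library is set against 2 and ranks overlap less often. More members ranked higher than lower in DKO in each of these. The shares over all regions were not computed for these settings, so the counts are a description of members. The median DKO minus WT difference was 2.45 percentile points in members (quartiles -3.76 and 9.03) and -0.03 in the other regions. With 2 libraries against 2, an exact two-sided permutation test cannot go below a p of 0.33, and no test was made.

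Members ranked higher in DKO more often than lower in each of the 8 weakest p deciles, by 26.2% against 13.7% in the weakest and 35.4% against 11.8% in the fifth. Regions that were not members showed 19.1% against 21.8% and 21.3% against 23.2% in these deciles. The balance moved with which lists at 72 h held a peak. Regions kept in both WT lists and no DKO list at 72 h had the opposite one, with 17.6% ranked higher and 30.7% ranked lower in DKO when naive. Regions kept in WT 72 h replicate 2 alone had 23.2% and 21.1%. The 81 regions with a peak in DKO lists only at 72 h had 34.6% and 9.88%, a wider split than that of members. The WT lists at 72 h were longer than the DKO lists, and the part of this in the balance was not tested. With all 8 lists at equal length the 271 regions had 33.2% ranked higher and 13.7% lower in DKO, against 20.6% and 20.3% of the others. With only the 72 h lists cut to equal length, 11046 regions met the rule, with 24.4% and 19.97%. The others then had 20.5% and 22.8%, so the split was smaller under this cut.

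**Figure D3:**
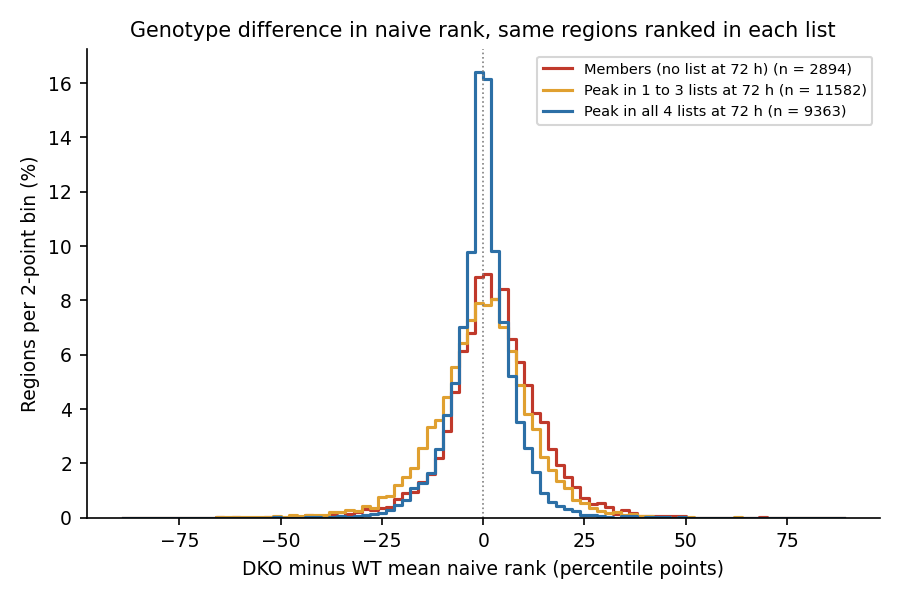
Lines give the percent of regions per bin of 2 percentile points of the DKO minus WT difference in mean naive rank among the 23839 regions found in all 4 naive lists. Members are centred to the right of 0 (median 2.45) and regions with a peak in all 8 lists at 0 (median -0.05).

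Single members differed far more between genotypes. The largest shift towards DKO was at chr2:32772938-32773914, with a fold of 5.12 and 4.96 in WT naive cells and of 17.3 and 20.7 in DKO naive cells. Its mean rank percentile was 7.92 in WT and 76.1 in DKO. Next came chr5:73543222-73543961 (fold 6.88 and 8.004 in WT, 16.1 and 22.5 in DKO), chr8:126795002-126796214 (5.82 and 6.47, then 18.96 and 16.1), chr5:64881569-64882491 (8.31 and 6.28, then 16.2 and 17.0) and chr8:126789369-126790428 (7.43 and 5.09, then 13.3 and 18.7). In all 5 the groups were far apart, and the 2 regions on chromosome 8 lie less than 10 kb from each other.

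The largest shift towards WT was at chr8:13986345-13987620, with a fold of 22.8 and 17.8 in WT and of 5.60 and 6.44 in DKO naive cells. The mean rank percentile there was 72.1 in WT and 7.18 in DKO. It was followed by chr4:144635496-144636222 (22.6 and 22.5 in WT, 7.94 and 6.01 in DKO), chr2:169783969-169784777 (22.8 and 19.4, then 7.98 and 8.99), chr11:75783923-75784665 (14.5 and 13.7, then 6.22 and 4.94) and chr15:100577201-100578665 (10.3 and 7.95, then 5.01 and 5.44). The first 3 had WT folds about as high as the median region found in all 8 lists. These 10 regions were picked for their difference, so it is a description.

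**Figure D4:**
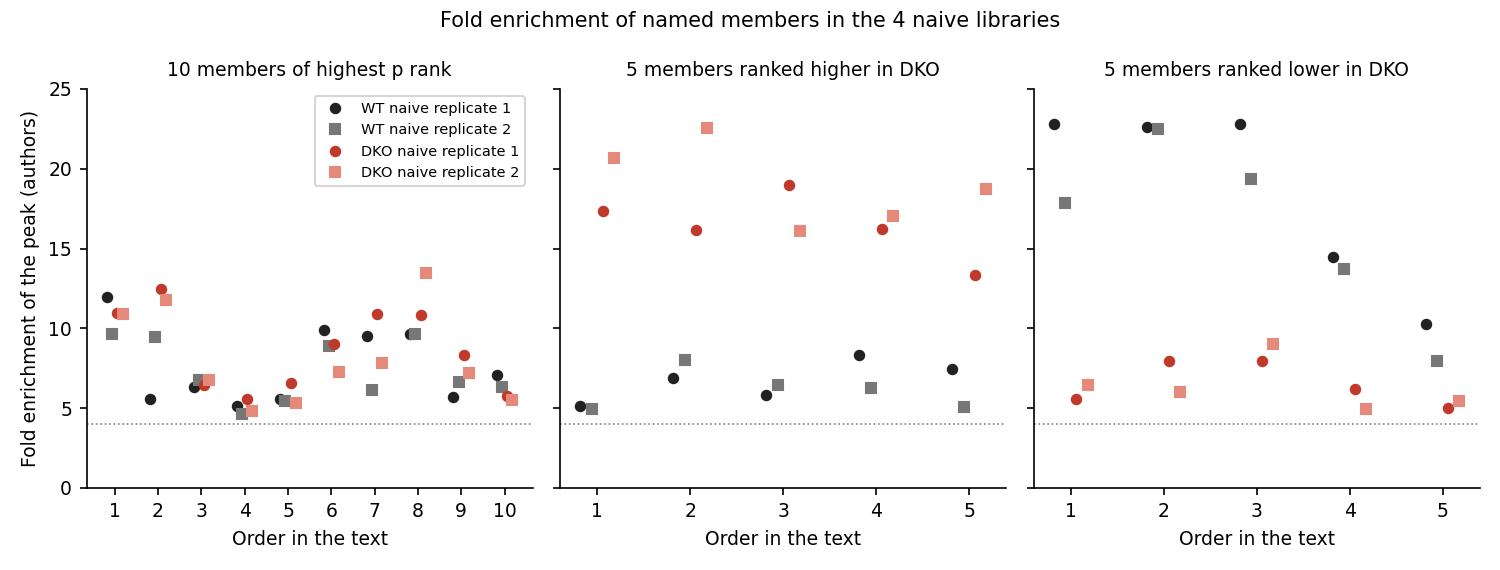
Points give the authors' fold enrichment in each of the 4 naive libraries for the 10 members of highest p rank, the 5 members shifted most towards DKO and the 5 shifted most towards WT, in the order of the text (dotted line, the floor of 4). In the left panel the folds run from 4.65 to 13.5, and in the other panels the WT and DKO points separate.

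Members lay near each other along the genome. Another member lay within 50 kb of 1094 members (37.8%), with a median distance of 85424.5 bp to the nearest. Of the 20945 other regions, 28.5% had a member within 50 kb, at a median distance of 130811 bp. The difference was present in each of the 9 weakest p deciles, and the strongest held only 2 members. The shares were 35.0% against 26.2% in the weakest, 41.7% against 28.1% in the third and 46.8% against 27.9% in the sixth. It was present at 10 kb too (13.4% of members, 8.25% of the others). Members also lay in denser stretches of CTCF sites in general, with another naive site within 10 kb of 51.2% of them against 47.0% of the others. With all lists at equal length 7.75% of the 271 regions had another such region within 50 kb, against 3.44% of the others. No test was made over regions, which are not replicates.

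**Figure D5:**
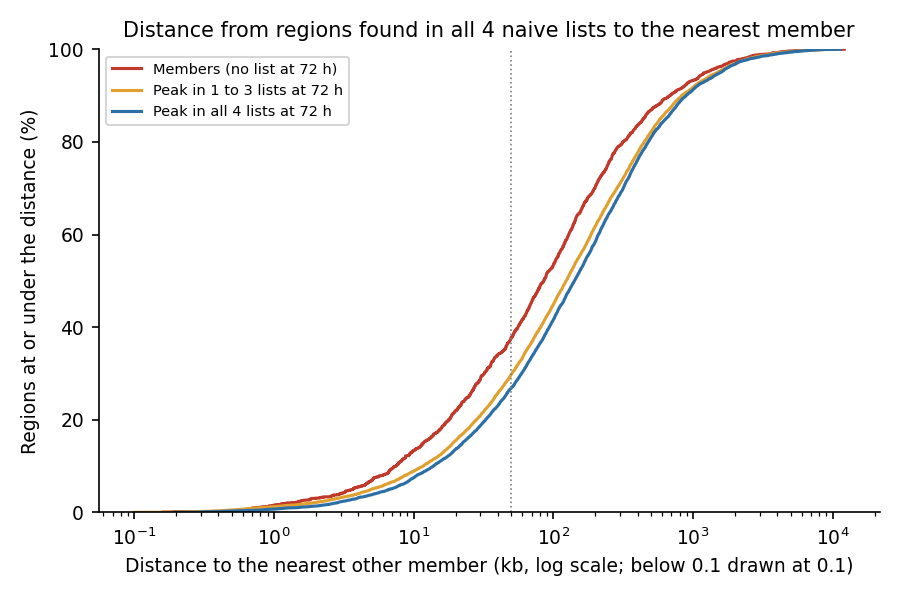
Curves give the percent of regions whose nearest other member lies at or under a distance (log scale, kb; dotted line, 50 kb). At 50 kb the curve stands at 37.8% for members, 29.8% for regions with 1 to 3 lists at 72 h and 26.9% for regions found in all 8 lists.

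Stable sites lay within 50 kb of most members and of most other naive sites. A region found in all 8 lists lay within 50 kb of 1887 members (65.2%) and within 10 kb of 645 (22.3%), against 60.9% and 23.6% of the other regions. A region with any peak at 72 h lay within 500 bp of 101 members (3.49%) and within 1 kb of 242 (8.36%). The shares of the other regions were near these, at 3.40% and 8.18%. Sites found only at 72 h, with no naive peak and at least 2 lists at 72 h, numbered 164, and 36 members (1.24%) had one within 50 kb, against 1.41% of the other regions. Weak naive sites with 1 to 3 naive lists and none at 72 h lay within 50 kb of 68.5% of members and of 59.4% of the others.

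In the order of naive sites along the chromosomes, 2074 members (71.7%) stood alone between naive sites with a peak in at least 1 list at 72 h, 624 came in 312 adjacent pairs and 165 in 55 runs of 3. The numbers that the member share alone would give were not computed, so these counts are a description. The longest run held 6 consecutive members within chr12:111732929-111830468. The first 5 of these, from chr12:111732929-111733727 to chr12:111744278-111745093, had folds from 5.77 to 14.9, and the last lay apart at chr12:111829500-111830468. The run of 5 at chr8:126765763-126808198 contained both of the chromosome 8 regions shifted towards DKO. Its members had folds of 5.09 to 12.2 in WT and of 5.94 to 26.9 in DKO naive cells. In 4 of these 5 members the mean rank was higher in DKO, and in chr8:126807748-126808198 it was lower (10.6 and 7.64 in WT, 5.94 and 6.26 in DKO). A higher mean rank in DKO was held by 60.5% of all members and 51.1% of all 23839 regions. Both runs were singled out after their values were seen.

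The densest stretches of at most 500 kb held 10 or 11 members each, interleaved with sites that were not members. In chr7:52702370-53185482, 11 of 35 naive sites were members and 5 had a peak in all 8 lists. The median mean fold there was 7.43 in members and 12.4 in the other sites. In chr8:86253289-86730954, 11 of 33 were members, with 6.35 against 11.9. The stretch with the largest share among the 5 was chr1:36300825-36748440, where 10 of 18 sites (55.6%) were members, with 6.76 against 19.6. In chr10:79316832-79806338 it was 10 of 29 (9.21 against 15.8), and in chr11:120177133-120658150 it was 10 of 25 (6.12 against 15.5). In each of these stretches the sites that were not members, which had a peak in 1 to 4 lists at 72 h, had the higher median fold. Over all 23839 regions the median mean fold was 6.69 in members and 14.1 in the others, so this order is a description. Mean naive ranks were higher in DKO for 6 of the 11 members in the stretch on chromosome 7 and 8 of the 11 on chromosome 8. The counts were 7 of 10 on chromosome 1, 4 of 10 on chromosome 10 and 9 of 10 on chromosome 11. Over all members the share was 60.5%, and over all 23839 regions 51.1%. With so few members per stretch, these counts are a description.

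Members were spread over all 19 autosomes in shares close to that of the whole (12.1%). The lowest share of naive sites was 10.5% on chromosome 13 (92 of 876, exact interval 8.55% to 12.7%) and the highest 14.2% on chromosome 8 (176 of 1236, 12.3% to 16.3%). Chromosome 8 also carried the second highest member by p rank, the run of 5 and one of the densest stretches. The intervals of the remaining chromosomes overlapped these, and they cover counting error only.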

How the data were processed

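The deposited files were peak lists, 1 per library. The tools named per the submitters' processing notes are MACS2 2.1.1, Bowtie2 2.2.5 and FastQC, with the build mm9; no control sample or peak threshold is stated in the labels. Fold is the authors' ratio of a peak to background. Evidence per peak is the authors' −log10 p and −log10 q. The authors' score, a whole number per peak, was not used, and the deposited summit column gives an offset in bp. Peaks on chromosomes 1 to 19 were merged at 1 bp of overlap. The strongest peak of a library stood for it in a region. Rank percentiles were taken within each list, and for WT against DKO among the 23839 regions common to the 4 naive lists. Members and lists were chosen with earlier results of these data known. Regions named were the 10 highest and 3 lowest by mean p rank, the 3 widest, 5 per direction of the largest genotype shift among members whose groups do not overlap, the 5 densest windows of 500 kb and 3 per border of the rule. Planned motif, gene-start and gene-list counts were not made, as no mm9 genome or annotation was used. The code was run on simulated lists, where 200 of 200 planted regions among 20000 were found. Simulated sites did not overlap and the planted ones were left out of every 72 h list, so this checks the code alone. In these lists 113 planted regions were called higher in DKO where 100 had been shifted. Python 3.11.15, numpy 2.4.6, pandas 2.3.3 and scipy 1.17.1 were used. Alternatives are described in the closing section.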

Additional observations from a re-analysis of the deposited data

How the results depend on the processing

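With only peaks of a −log10 q of 5 or more, members were 13.1% of naive sites, their median width 755 bp, the share with a region of all 8 lists within 50 kb 55.5%, and the median fold minus p percentile in the upper part of the p order -28.4. With all 8 lists cut to equal length, the rule gave 271 regions (3.40%), of which 35 overlapped a member, with a median percentile of 31.5, a width of 1016 bp, 7.75% near another member, 48.3% near a region of all 8 lists, 127 without overlap between genotypes (90 higher and 37 lower in DKO) and a difference of -49.2. With the 72 h lists alone cut, the same values were 11046 (46.3%), 38.1, 758 bp, 67.9%, 52.2%, 4904 (2698 and 2206) and -3.56. With summits required within 100 bp they were 14.1%, 35.7, 558 bp, 30.7%, 43.7% and -14.0, the number staying within 1.5 times. Regions were then single peaks of WT naive replicate 1, to whose summits the other lists were matched. The 558 bp is thus a peak width and is not comparable with the width of merged regions. Ranked by fold, the median percentile was 26.2. The 2 neighbour shares were 13.4% and 22.3% within 10 kb, and 70.3% and 92.7% within 200 kb. At 50 kb the share near a region of all 8 lists was above that of the other naive sites (65.2% against 60.9%), and at 10 kb it was below (22.3% against 23.6%). Most alternatives were computed for members alone, without the other sites beside them. For the counts by direction at equal length the shares are known. The 271 regions had 33.2% higher and 13.7% lower in DKO, against 20.6% and 20.3% of the others. The 11046 regions had 24.4% and 19.97%, against 20.5% and 22.8% of the others.

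Leaving out each library in turn gave 2897 to 6775 members (12.2% to 28.4%), median percentiles of 26.7 to 33.0, widths of 647 to 728 bp, 37.8% to 57.1% near another member and 63.3% to 75.8% near a region of all 8 lists. It gave 1325 to 3045 without overlap (872 to 1772 higher, 453 to 1273 lower in DKO) and differences of -23.3 to -13.5. Shares over all naive sites were not computed for these counts. The highest count was without WT 72 h replicate 2.

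Counted with the replicate block, as the sign of the DKO minus WT difference within each replicate number, 1784 members moved one way in both pairs (1116 higher, 668 lower). The share over all naive sites was not computed for this count either. Same-numbered libraries deviated together with r = 0.067 over all naive sites, so the numbers were not taken as pairs. The alternatives for the counts by direction and for fold minus p percentile were chosen after seeing the data. Motif and gene-start alternatives were not run. Depth is unknown, which limits every absence to one from a list.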

Other observations

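Chromosome X, which the rule leaves out, held 79 regions with a peak in all 4 naive lists and none at 72 h, of 599 found in all 4 naive lists (13.2%, exact interval 10.6% to 16.2%). Their median mean naive p percentile was 26.9. The highest ranked were chrX:70252771-70254056 (fold 10.2 and 9.99 in WT, 9.80 and 11.9 in DKO naive cells), chrX:96132891-96133589 (7.80 and 7.73, then 10.2 and 7.67) and chrX:133275818-133277678 (7.43 and 5.60, then 8.12 and 5.62). Their p percentiles were 70.0, 64.3 and 62.3 and their fold percentiles 51.2, 39.4 and 27.1. These 3 were picked for their p rank, so the lower fold rank is a description.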
